A study of Mus musculus with 6 samples.

Results

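The collagen genes of the colon wall were examined in Mthfd1/+ and wild-type mice. Members were the probe sets whose single platform gene symbol was Col, a number, the letter a and a number, which gave 58 of 22626 probe sets and 36 of 12393 named genes. Both groups were 8 weeks old and had been kept for 5 weeks from weaning on the AIN-93G control diet. The Mthfd1/+ group held 3 mice that carried a BayGenomics gene trap in one Mthfd1 allele, the gene of a cytosolic enzyme of folate metabolism, and the wild-type group held 3 mice. Each array measured biotin-labelled RNA amplified from the opened and rinsed proximal part of a single colon, with all layers of the wall together. The labels give no trap site, strain or sex. In such bulk tissue, fewer cells of a type and less RNA per cell cannot be told apart.

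Collagens are secreted proteins wound from chains into a triple helix. Fibrillar collagens (types I, III and V among them) assemble into the cable-like fibrils of the submucosa and muscle coat and resist stretch. Basement membrane collagens form sheets beneath the epithelium and around vessels, nerves and smooth muscle cells. The remaining families form beaded filaments (type VI), decorate the surface of fibrils (types XIV and XVI) or anchor epithelia. In the gut wall, fibroblasts and smooth muscle cells are known as the main makers of fibrillar collagen.

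Mthfd1 itself read 453.1, 509.6 and 549.4 in the Mthfd1/+ arrays against 949.9, 838.6 and 881.4 in the wild-type arrays at its brightest probe set. Its next probe set read 209, 239.5 and 170.6 in Mthfd1/+ against 406.2, 413.4 and 443.4 in wild-type colon, and its dimmest read 37.5, 31.8 and 34.5 against 43.9, 59.5 and 59.7. At all 3 probe sets, the groups did not overlap and the labels matched the lower signal of the trapped gene. The log2 fold change was -0.80 (SE 0.12) at the brightest and -0.99 (SE 0.15) at the next, with limma adjusted p of 0.121 and 0.108.

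Across probe sets, which are not independent replicates, pairs of arrays of the same genotype correlated at r = 0.959 to 0.981 and pairs of unlike genotype at 0.961 to 0.982. The tissue label fitted its markers: the epithelial keratin gene Krt8 read 17275.8 to 18697 in Mthfd1/+ and 17645.5 to 19892.2 in wild-type arrays, and smooth muscle actin Acta2 read 13094.3 to 14765.4 and 12335.2 to 14411.2. Some fat cell markers were also bright. At its brightest probe set, Fabp4 read 7006.6, 9073.4 and 7923.8 in Mthfd1/+ arrays against 9093.3, 9795 and 6015.7 in wild-type arrays. Its other probe sets read 111.3 to 1447.8, and Lep read at most 38.4. By the means of marker lists, though not for every marker, wild-type replicate 3 stood apart in composition. The mean centred log2 signal of 8 smooth muscle markers was 0.37 there and -0.24 to 0.16 on the other arrays. That of 3 adipocyte markers was -0.44 there and -0.27 to 0.33 elsewhere. The collagen and fibrillar median fold changes and the median r of the collagen classes are given with and without this array. Other results include it unless stated.

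No collagen gene passed the test for a difference between genotypes. Of the 58 collagen probe sets, 28 passed a filter on mean signal over all 6 arrays (the 40th percentile, near a signal of 93.3), and these stood for 17 genes. In limma, 0 of the 28 had an adjusted p under 0.05, where 0% of all 13576 tested probe sets did, and 1, higher in Mthfd1/+, had an unadjusted p under 0.05, against 5.69% of all tested probe sets in either direction and 3.12% that were higher in Mthfd1/+. The groups did not overlap at 1 of the 28, again with Mthfd1/+ higher, against 10.4% of all and 5.26% with Mthfd1/+ higher. That probe set belongs to Col15a1. With each gene at its brightest probe set, 8 genes were higher and 9 lower in Mthfd1/+ colon by point estimate, and the median log2 fold change was 0.00, against 0.01 for all 8241 tested genes. The 95% intervals of the 17 genes ran from log2 -0.67 to 0.68 at their outer ends, or 0.63-fold to 1.6-fold, so that all 17 lay within 2-fold and 14 lay within 1.5-fold in either direction. Signals entered these fits as log2(signal + 16), which understates the change of dim genes.

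**Figure D1:**
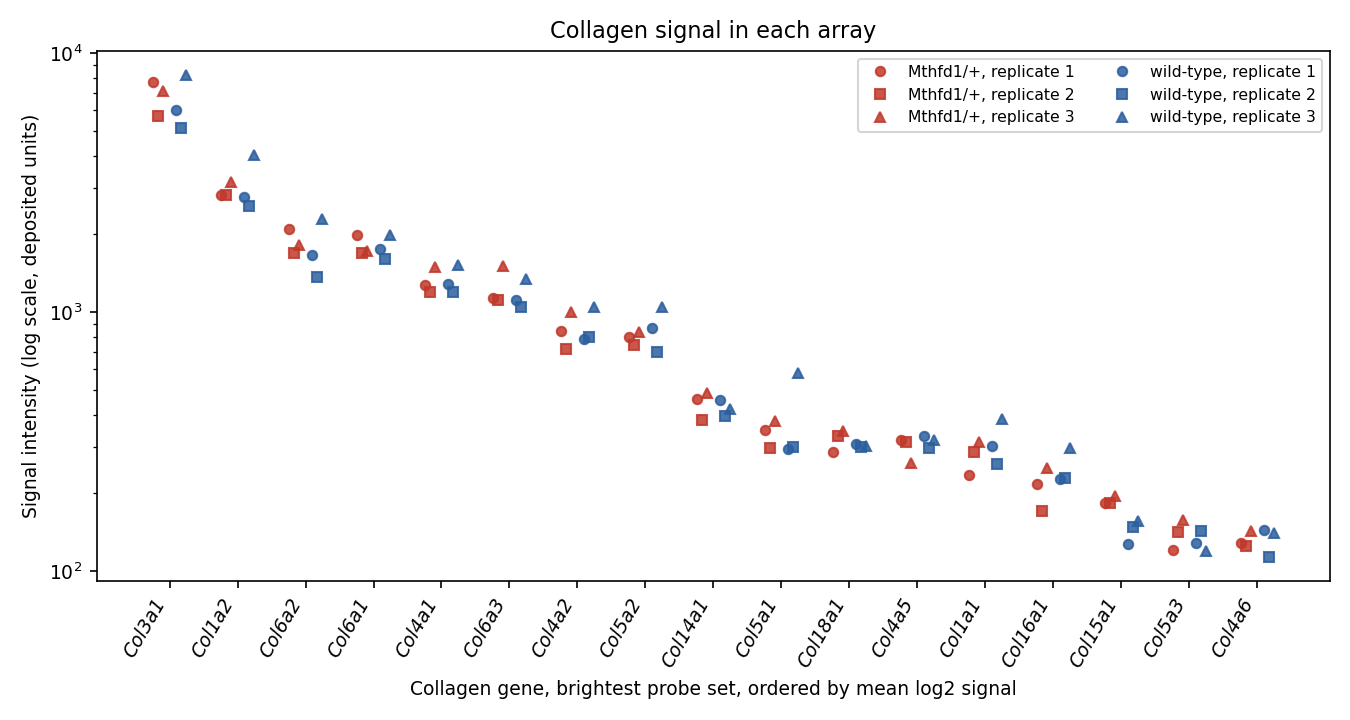
Signal of the 17 tested collagen genes (log axis, deposited intensity units) in each array, with Mthfd1/+ arrays left and wild-type arrays right of each gene's tick and a marker shape for each replicate number. Genes run from Col3a1, with 5685.4 to 7745.5 in Mthfd1/+ and 5122.5 to 8223.2 in wild-type arrays, to Col4a6, and the groups overlap for every gene plotted except Col15a1.

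Fibrillar genes included the 2 brightest collagens, Col3a1 and Col1a2. The order given here is of probe set signal, which also depends on each probe's own binding, and it is not an order of transcript number. Col3a1 encodes the single chain of type III collagen, a fibril component of distensible organs. Its brightest probe set ranked 401st of 22626 on the array and read 7745.5, 5685.4 and 7148.1 in Mthfd1/+ against 6040.2, 5122.5 and 8223.2 in wild-type colon. Mthfd1/+ values lay wholly inside the wild-type range, with a log2 fold change of 0.10 (95% interval -0.29 to 0.49, limma adjusted p = 0.972). Col1a2, a chain of type I collagen, read 2824.3, 2819.4 and 3176.8 in Mthfd1/+ against 2783.3, 2551.4 and 4014.9 in wild-type arrays. Its Mthfd1/+ values were tightly spaced while wild-type replicate 3 was the highest of the 6, and the log2 fold change was -0.06 (interval -0.42 to 0.30). A second Col1a2 probe set read 708.7, 723.1 and 637 in Mthfd1/+ against 867.1, 684.6 and 1116.2 in wild-type arrays. Its log2 fold change of -0.334 (interval -0.725 to 0.057, limma adjusted p = 0.908) was the lowest of the 28 tested collagen probe sets.

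The partner chain gene Col1a1 read 234.4, 287 and 313.9 in Mthfd1/+ against 304.3, 258.2 and 384.3 in wild-type colon, with a log2 fold change of -0.16 (interval -0.56 to 0.23). A second Col1a1 probe set of nearly the same mean signal read 344.1, 251.1 and 230.7 against 257.9, 229.2 and 535.6. Both were highest in wild-type replicate 3, and neither separated the genotypes. Col5a2 and Col5a1 encode chains of type V collagen, which starts fibrils and sets their width. Col5a2 read 802.3, 745.4 and 835.8 in Mthfd1/+ against 862.5, 701 and 1046.5 in wild-type arrays (log2 -0.11). Col5a1 read 350.2, 297.5 and 380 against 295, 299.5 and 581.3 (log2 -0.12), the widest interval among the 17 genes (-0.67 to 0.43). The dimmest tested member, Col5a3, read 119.9, 141.7 and 156.7 in Mthfd1/+ against 128.3, 142.3 and 119.3 in wild-type arrays and was lowest in wild-type replicate 3, where the other 5 fibrillar genes were highest. The fibrillar median was log2 -0.08 over 6 genes, and 0 of 11 tested probe sets passed. By point estimate, 3 of the 11 were higher and 8 lower in Mthfd1/+ colon. Without wild-type replicate 3 the fibrillar median was 0.09, of opposite sign, and without wild-type replicate 2 it was -0.22.

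Basement membrane collagens ranged from the fifth brightest of the 17 genes, Col4a1, to the dimmest, Col4a6. Col4a1 and Col4a2 encode the chains of the type IV collagen found in nearly all basement membranes. Col4a1 read 1266.8, 1194.1 and 1495.1 in Mthfd1/+ against 1281.5, 1191.7 and 1519.5 in wild-type colon, with a log2 fold change of -0.01 (interval -0.32 to 0.29). A second Col4a1 probe set read 508.6, 506.2 and 713.7 in Mthfd1/+ against 576.8, 622.4 and 759 in wild-type arrays (log2 -0.18, interval -0.57 to 0.20). Col4a2 read 846.8, 716.1 and 998.3 in Mthfd1/+ against 788.9, 799.7 and 1047.4 in wild-type arrays (log2 -0.04, interval -0.41 to 0.33). On both genes, replicate 3 of each genotype was the highest of its group. Col4a5 and Col4a6, chains of a type IV collagen known around smooth muscle, were dimmer: Col4a5 read 319.9, 315.6 and 260.1 against 331.8, 296.9 and 320.2 (log2 -0.08), and Col4a6 had a log2 fold change of 0.00 at 132 ± 9.38 in Mthfd1/+ and 132.5 ± 16.6 in wild-type colon (SD, n = 3 each). A second Col4a6 probe set read 154.3, 75 and 129.9 against 92.3, 83.5 and 76.8, with a log2 fold change of 0.39 and an interval of -0.16 to 0.95.

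The multiplexins Col15a1 and Col18a1 encode proteoglycan collagens that sit at the outer face of basement membranes, and a fragment of the Col18a1 product is endostatin. Col15a1 read 182.8, 182.4 and 194.3 in Mthfd1/+ against 126.9, 147.8 and 156.1 in wild-type colon, so every Mthfd1/+ array lay above every wild-type array. The log2 fold change was 0.35 (interval 0.01 to 0.68), 1.27-fold, with an unadjusted p of 0.043 and an adjusted p of 0.859 in limma and an exact permutation p of 0.1, the smallest that 3 against 3 arrays can give. It therefore did not pass over all probe sets, and no second Col15a1 probe set is among the members. Its unadjusted p was 0.0577 with the replicate number as a block and 0.0578 without the filter. The p was between 0.0378 and 0.12 with each array left out in turn. Col18a1 read 286.4, 330.8 and 345.9 in Mthfd1/+ against 308.5, 301.2 and 302.4 in wild-type arrays (log2 0.07), with 1 Mthfd1/+ array below all wild-type arrays and the other two above them.

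Among the other collagens, the type VI genes were the brightest. Col6a2, Col6a1 and Col6a3 encode chains of the beaded filaments that link cells to the fibrils around them. Col6a2 read 2093.6, 1690.9 and 1809.3 in Mthfd1/+ against 1652.9, 1368.5 and 2290.2 in wild-type colon (log2 0.10). Col6a1 read 1982.9, 1690.7 and 1712.7 against 1747.3, 1600.5 and 1984.7 (log2 0.02, interval -0.26 to 0.29). Col6a3 read 1129.1, 1112.9 and 1496.6 against 1113.3, 1042.6 and 1335.2 (log2 0.09). All 3 overlapped between genotypes, and Col6a1 varied the least of them, 1.24-fold between its highest and lowest arrays. A further Col6a2 probe set, of a type that may bind related transcripts, had a log2 fold change of -0.13.

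The fibril-associated genes were dimmer. Col14a1 read 461.6, 383.3 and 487.1 in Mthfd1/+ against 455.4, 396 and 420.3 in wild-type colon (log2 0.06). Col16a1 read 216.9, 170.7 and 249.4 against 227.2, 227.4 and 298.8, with overlapping groups. Its log2 fold change of -0.23 (interval -0.63 to 0.17) was the lowest of the 17 genes at their brightest probe sets. Over the 5 tested genes of this class, the median was 0.06. Col8a1, which encodes a short-chain collagen of vessel walls, fell just below the filter at 78.6, 63.5 and 53.8 in Mthfd1/+ against 80.2, 70.8 and 151 in wild-type arrays, again with wild-type replicate 3 the highest.

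In all, 19 of the 36 genes had no probe set above the filter, and the 30 untested probe sets read from 0.4 to 151. These genes were the cartilage-type fibrillar collagens Col2a1, Col11a1 and Col11a2 (at most 46.5), the kidney-type basement membrane chains Col4a3 and Col4a4 (at most 47.5), and 14 of the 19 other collagen genes. Of these, Col7a1, the anchoring fibril gene, reached 105.5, Col13a1 99.9, Col20a1 90.2 and Col12a1 76.3, whereas Col10a1, a growth plate gene, reached 7.1 and Col17a1, of the hemidesmosome, 18. Col9a1, Col9a2, Col9a3, Col19a1, Col22a1, Col25a1 and Col26a1 read at most 66.1. The table holds no detection calls, so these signals were not shown to differ from background. The cartilage markers Acan, Comp, Matn1 and Hapln1 were below the filter as well, while the fifth, Sox9, read 256.1 to 378.9 in Mthfd1/+ and 244.7 to 362.6 in wild-type arrays.

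**Figure D2:**
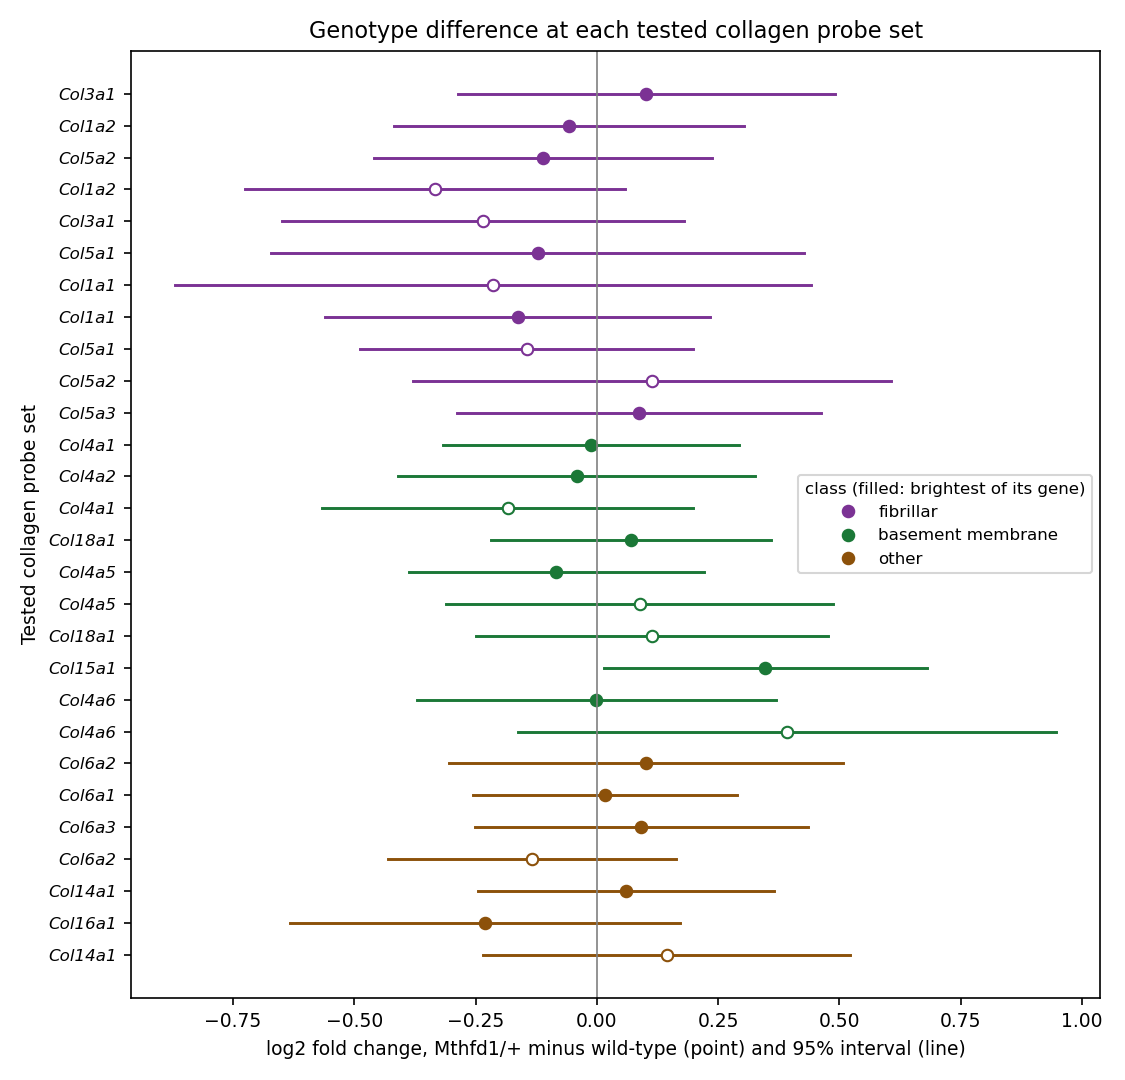
Log2 fold change (Mthfd1/+ minus wild-type, points) with 95% limma intervals (lines) for the 28 tested collagen probe sets, in order of signal within each class, with filled points for the brightest probe set of a gene. Only the interval of Col15a1 (0.01 to 0.68) leaves out 0, before adjustment over all probe sets, and probe sets of the same gene often lie on opposite sides of 0.

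Probe sets of the same gene were compared as a check on these small differences. There were 11 genes with a pair of tested probe sets, and at 5 of them (Col3a1, Col5a2, Col4a5, Col4a6 and Col6a2) the fold changes had opposite signs. Col3a1 had log2 0.10 at one and -0.23 at the other, and Col5a2 had -0.11 and 0.11. Over the 6 arrays, the median Pearson r between probe sets of a gene was 0.51, from -0.22 for Col18a1 to 0.83 for Col4a1. Without the pair of arrays farthest from the median, r was lower at each of these genes. It then ran from -0.917 for Col5a1 to 0.393 for Col1a2, with -0.158 for Col4a1 and 0.085 for Col5a2. After adjustment over the 11 pairs, 0 had a permutation p under 0.05. The sign of the fold change thus depended on the probe set at these 5 genes.

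Many of the collagens were high or low on the same arrays. Of the 17 genes, 10 were highest in wild-type replicate 3 and 8 were lowest in wild-type replicate 2. Over all tested probe sets, 22.5% were highest in wild-type replicate 3 and 18.9% lowest in wild-type replicate 2. The mean centred log2 signal of the fibrillar genes was -0.06, -0.11 and 0.10 in Mthfd1/+ arrays against -0.07, -0.19 and 0.33 in wild-type arrays. The basement membrane genes spanned less, at 0.00, -0.03 and 0.11 against -0.05, -0.11 and 0.09. Beaded filament and fibril-associated genes followed the fibrillar ones, at 0.06, -0.16 and 0.11 against -0.04, -0.17 and 0.20. Wild-type arrays thus held both the highest and the lowest fibrillar value, with the Mthfd1/+ arrays between them.

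**Figure D3:**
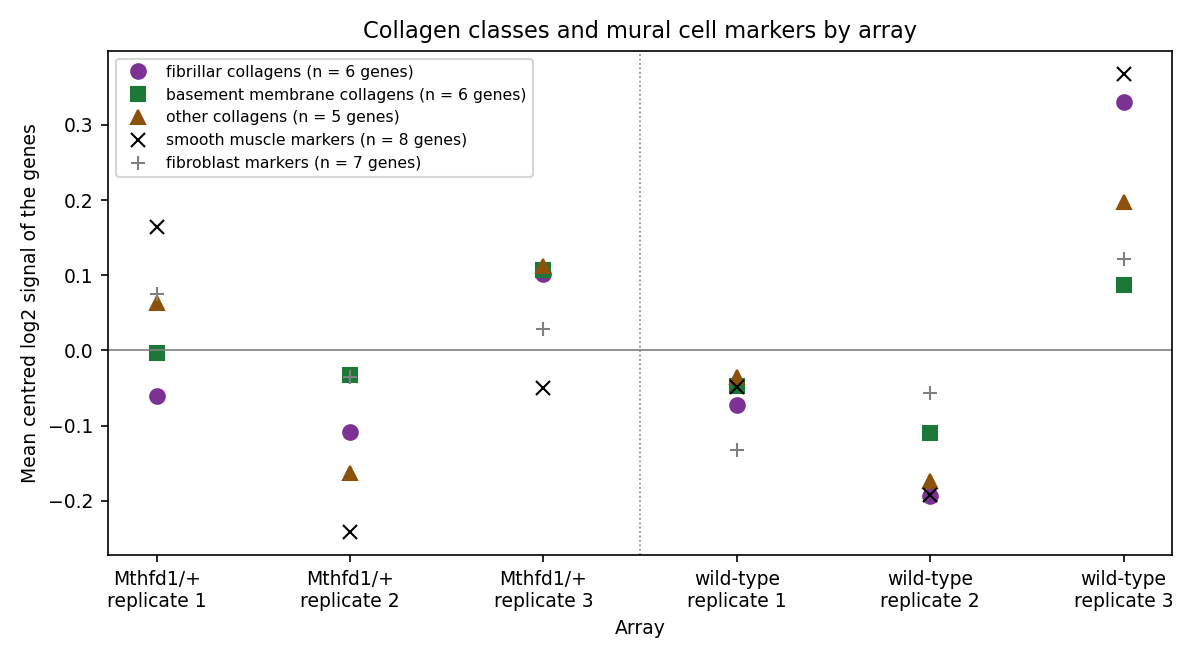
Mean centred log2 signal (each gene minus its mean over the 6 arrays) of the 3 collagen classes, of 8 smooth muscle markers and of 7 fibroblast markers, by array, with Mthfd1/+ arrays left. Wild-type replicate 3 is the highest array for fibrillar collagens (0.33) and smooth muscle markers (0.37), and the basement membrane class has the narrowest spread of the 3 collagen classes.

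Markers of smooth muscle and fibroblasts were compared on the same arrays. Smooth muscle markers had a mean centred log2 signal of 0.16, -0.24 and -0.05 in Mthfd1/+ arrays against -0.05, -0.19 and 0.37 in wild-type arrays, and their summed signal ran from 45400 to 57860 against 45690 to 63660. Fibroblast markers read 0.07, -0.04 and 0.03 against -0.13, -0.06 and 0.12, with sums of 15440 to 17400 against 15380 to 17620. Single fibroblast genes differed: on wild-type replicate 3, Lum had its highest signal (4136.3), as did Pdgfrb (446.9) and Dpt (2431.4), whereas Dcn (6022.9), Pdgfra (1128.9), Vim (3174.4) and Thy1 (279.3) did not. The fibroblast list was lowest on wild-type replicate 1 and the smooth muscle list on Mthfd1/+ replicate 2, while the fibrillar collagens were lowest on wild-type replicate 2. On Mthfd1/+ replicate 1 the smooth muscle markers were above their mean while the fibrillar collagens were below theirs. Acta2 (14765.4), Myl9 (11775.3) and Smtn (1104.3) had their highest signal on that array. Actg2, Myh11, Des, Tagln and Cnn1 had theirs on wild-type replicate 3. Adipocyte markers ran the other way on wild-type replicate 3, with 3 of 5 tested and sums of 11970 to 14980 in Mthfd1/+ against 10680 to 17220 in wild-type arrays. The part of any of these cell types in the collagen values was not tested. With wild-type replicate 3 left out, 14 of the 17 collagen genes had a positive fold change, against 8 of 17 with it. The median was then log2 0.09, with 0.29 for Col3a1, 0.30 for Col6a2, 0.19 for Col5a1 and 0.40 for Col15a1, and 0 collagen probe sets passed. Leaving out the highest array of a group lowers that group's mean by arithmetic, and 10 of the 17 genes were highest on this one. Without wild-type replicate 2, where 8 of the 17 were lowest, the median was log2 -0.09. The share of positive genes over all tested genes was not computed for these fits.

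Co-variation was described by Pearson r over the 6 arrays, which share scaling and hybridisation. The median r over the 136 pairs of tested collagen genes was 0.44, and 46.3% of pairs had r above 0.5. Over all pairs of the 8241 tested genes, the median was 0.01 and 17.5% had r above 0.5. Within classes the median r was 0.78 for 15 fibrillar pairs, 0.20 for 15 basement membrane pairs and 0.45 for 10 pairs of other collagens. Between fibrillar and other collagens it was 0.63 over 30 pairs. After each gene was centred within genotype, the medians were 0.54 for all collagen pairs, 0.79 for fibrillar pairs and 0.12 for basement membrane pairs, and the fibrillar median thus stayed near its value across genotypes. Without wild-type replicate 3 the medians were 0.43 for all collagen pairs, 0.47 for fibrillar pairs, 0.38 for basement membrane pairs and 0.51 for pairs of other collagens, so the gap between the fibrillar and basement membrane classes was much smaller over the remaining 5 arrays.

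**Figure D4:**
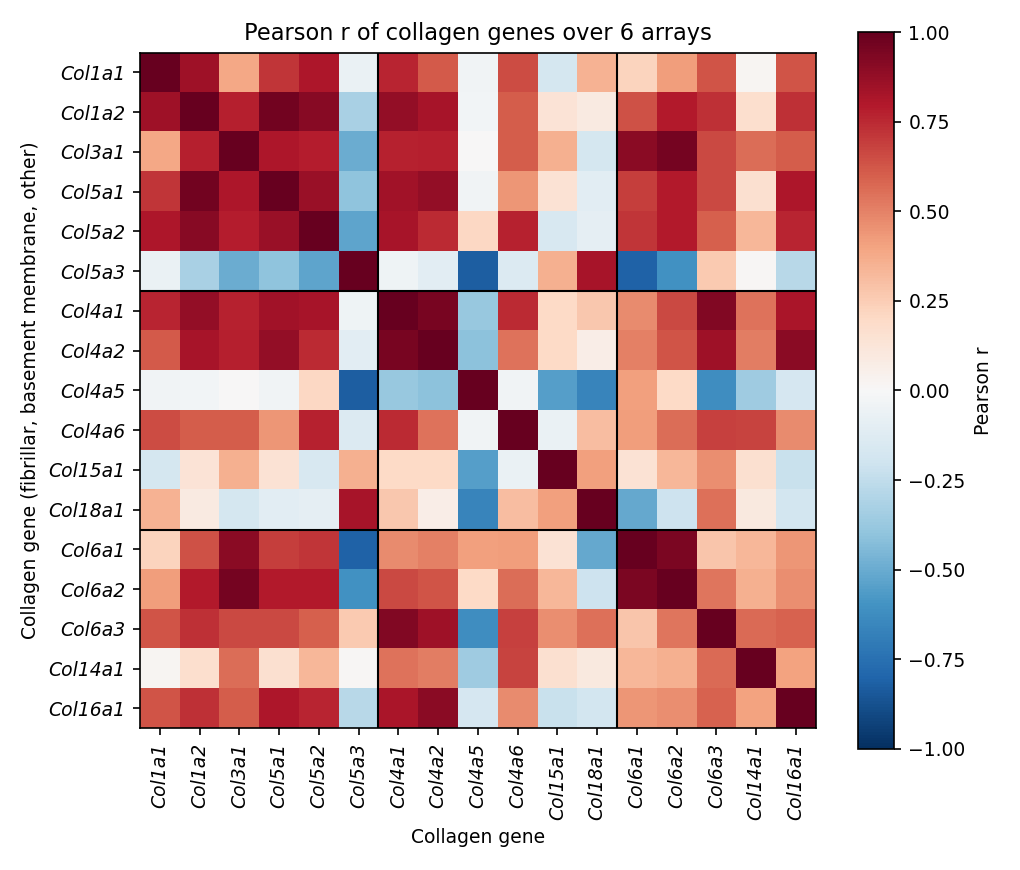
Pearson r over the 6 arrays between each pair of the 17 tested collagen genes (colour scale from -1 to 1), with lines between fibrillar, basement membrane and other collagens. A block of high r joins Col1a2, Col3a1, Col5a1, Col5a2, Col4a1, Col4a2 and Col6a2, while Col5a3, Col4a5, Col15a1 and Col18a1 stand outside it.

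The genes that moved together crossed the classes. Col5a2 and Col4a1 had the highest median r with the other 16 collagens, 0.75 each, followed by Col1a2 at 0.73 and Col5a1 at 0.71. The closest partners were Col5a1 and Col1a2 (r = 0.961) and Col3a1 and Col6a2 (r = 0.959), and Col16a1, of the fibril surface, was closest to Col4a2 (r = 0.902). Col5a3, Col4a5, Col18a1 and Col15a1 had median r of -0.21, -0.10, 0.08 and 0.15. Among these 4 genes, r ran from -0.82 for Col5a3 and Col4a5, the lowest of the 136 pairs, to 0.83 for Col5a3 and Col18a1. Their signals were at most 345.9 on any array. Col4a6 and Col16a1, which were also dim, had median r of 0.55 and 0.53. Between tested probe sets of the same gene, r was -0.22 for Col18a1, 0.26 for Col4a5 and 0.19 for Col4a6. The part of low signal in these r values was not tested.

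For 8 chain pairs, r was tested with exact permutations of the arrays. Col6a1 and Col6a2, neighbours on chromosome 10 whose products join the same type VI molecule, gave r = 0.942 (exact permutation p = 0.0194, adjusted over the 8 pairs 0.117) and rho = 0.829 (p = 0.0583, adjusted 0.35). Without the pair of arrays farthest from the median, r was 0.842. Col4a1 and Col4a2 gave r = 0.95 (exact permutation p = 0.0389, adjusted 0.117) and rho = 0.714 (p = 0.136, adjusted 0.35), with r = 0.569 without the farthest arrays. Col1a1 and Col1a2 gave r = 0.848 (exact permutation p = 0.0583, adjusted 0.117) and rho = 0.6 (p = 0.242, adjusted 0.387), with 0.879 without the farthest arrays. With the other Col1a1 probe set, chosen after its values were seen, r with Col1a2 was 0.802, and -0.07 without Mthfd1/+ replicate 1 and wild-type replicate 3. None of the 8 pairs passed after adjustment.

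Other pairs rested on few arrays. Col5a1 and Col5a2 gave r = 0.86 (exact permutation p = 0.0833, adjusted 0.133) and rho = 0.371 (p = 0.497, adjusted 0.497), but r was 0.18 without Mthfd1/+ replicate 3 and wild-type replicate 3. Col3a1 and its neighbour Col5a2 gave r = 0.782 (exact permutation p = 0.05, adjusted 0.117) and rho = 0.771 (p = 0.103, adjusted 0.35), and 0.286 without wild-type replicates 2 and 3. Col1a1 and Col3a1 gave r = 0.387 (exact permutation p = 0.447, adjusted 0.596) and rho = 0.429 (p = 0.419, adjusted 0.479), and 0.921 without the farthest arrays; with the other Col1a1 probe set r was 0.763, and -0.055 without the farthest arrays. Col6a1 and Col6a3 gave r = 0.274 (exact permutation p = 0.575, adjusted 0.657) and rho = 0.657 (p = 0.175, adjusted 0.35), and 0.434 without the farthest arrays. Col4a5 and Col4a6 gave r = -0.03 (exact permutation p = 0.931, adjusted 0.931) and rho = 0.429 (p = 0.419, adjusted 0.479), and 0.815 without the farthest arrays. Differences between these r values were not tested.

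Several of these pairs lie side by side in the GRCm38.p6 gene table. Col4a1 (chr8:11198423-11312889) and Col4a2 (chr8:11312805-11449287) are annotated head to head with 85 bases in common. Col4a6 (chrX:141165403-141474095) and Col4a5 (chrX:141475370-141689236) are separated by 1274 bases. Their r was -0.03 over all arrays, with a rho of 0.429, and r was 0.815 without the farthest arrays. Col3a1 (chr1:45311538-45349706) and Col5a2 (chr1:45374331-45503282) lie 24624 bases apart, and Col6a2 (chr10:76595756-76623630) and Col6a1 (chr10:76708792-76726044) lie 85161 bases apart. Probe set positions within the genes were not used here. Mthfd1 is on chromosome 12, which holds none of the 17 tested collagen genes.

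Upstream sequence is shown for 3 bright genes that moved together and have an entry in the RefSeq promoter table: Col3a1 had r = 0.899 with Col6a1 and 0.777 with Col1a2, and Col1a2 had 0.633 with Col6a1. Each run gives the 250 bases before the RefSeq start (GRCm38.p6), 5′ to 3′ on the gene's strand, and capitals mark 3 motifs searched on both strands: the TATA box written TATAAA, the CCAAT box, and the GC box written GGGCGG. The positions are chr1:45311288-45311537 on the plus strand for Col3a1, chr6:4505368-4505617 on the plus strand for Col1a2 and chr10:76726045-76726294 on the minus strand for Col6a1.
Col3a1: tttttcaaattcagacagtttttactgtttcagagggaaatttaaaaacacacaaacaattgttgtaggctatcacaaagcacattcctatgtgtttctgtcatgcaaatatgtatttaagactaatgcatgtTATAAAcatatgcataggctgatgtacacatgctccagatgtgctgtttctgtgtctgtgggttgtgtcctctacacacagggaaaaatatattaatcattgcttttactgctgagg
Col1a2: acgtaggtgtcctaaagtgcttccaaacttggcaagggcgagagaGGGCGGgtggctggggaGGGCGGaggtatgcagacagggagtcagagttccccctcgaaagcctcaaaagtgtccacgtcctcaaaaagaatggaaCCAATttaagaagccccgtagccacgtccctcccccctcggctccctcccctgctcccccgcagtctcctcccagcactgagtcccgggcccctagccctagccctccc
Col6a1: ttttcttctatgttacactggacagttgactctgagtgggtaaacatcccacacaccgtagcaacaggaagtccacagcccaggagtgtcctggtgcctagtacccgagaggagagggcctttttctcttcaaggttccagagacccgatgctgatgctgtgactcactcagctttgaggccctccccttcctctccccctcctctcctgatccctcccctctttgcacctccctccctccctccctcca
Col3a1 holds TATAAA from base 117 to base 112 before the start. Col1a2 holds CCAAT, a motif read by the factor NF-Y, from base 109 to base 105, and GGGCGG, a motif read by Sp1, from bases 205 and 188. Col6a1 holds none of the 3 motifs in these letters. None of the motifs is thus in all 3 windows. Among 32851 promoter windows of the same length, TATAAA is in 12.4%, CCAAT in 33.8% and GGGCGG in 32.7%, against 13.2%, 34.2% and 57.9% of the 38 windows that belong to 35 collagen genes. The matches shown do not overlap each other, and a match is a description of the sequence, not a bound site.

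Genes whose profile was most like the mean of the 6 fibrillar collagens were sought among 8224 other tested genes. The 10 nearest by Pearson r over the 6 arrays were Rfx5 (0.995), Pdzrn3 (0.992), Ipo11 (0.989), Apeh (0.986), Umps (0.984), Sema3a (0.983), Hdlbp (0.981), Ing3 (0.981), Adgrl1 (0.979) and 9530068E07Rik (0.978). They were picked for this likeness from a large number of genes over only 6 arrays, and no gene of the pathway or marker lists was among them.

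Genes that make, cross-link, bind and degrade collagen were examined in 7 lists with 77 tested genes. In limma, 0 of the 77 passed in either direction, the median log2 fold change was -0.04, and 2 had an unadjusted p under 0.05, against 5.69% of all tested probe sets. Those were Hspa5, the chaperone BiP, with 5319.2, 7151.5 and 7308.3 in Mthfd1/+ against 4971.8, 5000.9 and 5727.8 in wild-type colon (log2 0.32, adjusted p = 0.817), and Ctsk, the collagen-degrading protease cathepsin K. Ctsk read 104.3, 107.3 and 113.6 in Mthfd1/+ against 175.7, 153 and 129.3 in wild-type arrays, with groups that did not overlap (log2 -0.43, adjusted p = 0.817).

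Of 16 tested folding and modification genes, 4 were positive and 12 negative, with a median of -0.03. Tmem38b, an ion channel of the endoplasmic reticulum, had -0.22 and Creb3l1, a collagen gene activator, -0.36. Creb3l1 read 1212 on wild-type replicate 3 and 499.9 to 718.2 on the other arrays. Of 6 propeptide cleavage and cross-linking genes, 3 were positive, with a median of -0.01. The cross-linking enzyme gene Lox read 123.3, 118.4 and 170.1 in Mthfd1/+ against 45.2, 104.9 and 125.4 in wild-type colon (log2 0.58, adjusted p = 0.91), with overlapping groups, while Loxl3 had -0.26 and the procollagen cleavage enhancer Pcolce -0.10. Of 21 fibril-associated proteoglycans and glycoproteins, 8 were positive and 13 negative, with a median of -0.07. Among them the matricellular genes Tnc, Thbs1 and Postn had -0.45, -0.37 and 0.16. Tnc read 1297.7 on wild-type replicate 3 and 538.9 to 736.2 on the other arrays.

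Of 12 basement membrane partners, 3 were positive and 9 negative, with a median of -0.10. The laminin chain gene Lama2 had 0.35, the dystroglycan gene Dag1 -0.19, with groups that did not overlap, and the perlecan gene Hspg2 -0.28. Ctsk and Dag1 were named by smallest p, so they cannot be set against the 10.4% of all tested probe sets that did not overlap. Overlap was not counted over all 77 genes of the lists. Only 4 collagen receptor genes were tested, with a median of 0.07: the collagen-binding kinase genes Ddr1 and Ddr2 had -0.30 and 0.30, and Cd36 had 0.12. Of 7 degradation genes, 4 were positive, with a median of 0.04. The protease genes Fap and Mmp2 had 0.16 and -0.14. Of 11 genes of TGF-beta signalling, a known inducer of collagen genes, 5 were positive, with a median of -0.02. Tgfb2, Ltbp1 and Tgfb1 had -0.41, -0.18 and 0.19. Of the 7 lists, 4 were highest on the array where the fibrillar collagens were highest: the mean centred log2 signal in wild-type replicate 3 was 0.25 for folding genes, 0.20 for cleavage and cross-linking genes, 0.33 for fibril-associated genes and 0.28 for TGF-beta genes.

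Cell type markers gave no called difference either: in limma 0 passed in any of 11 lists, and 2 of the 43 tested marker genes, Krt18 and Ptprc, had an unadjusted p under 0.05, against 5.69% of all tested probe sets. The genes named for each list are those with the smallest p. The median log2 fold change was 0.14 for 7 fibroblast genes, 5 positive and 2 negative (Dcn 0.16, Thy1 0.14, Pdgfrb 0.16). It was -0.02 for 8 smooth muscle genes, 4 positive and 4 negative (Des -0.40, Actg2 -0.30, Cnn1 -0.34). Des, Actg2 and Cnn1 were each highest on wild-type replicate 3 (2903.4, 10933.4 and 6033.7). For 6 endothelial genes, 4 positive and 2 negative, the median was 0.07 (Cdh5 -0.37, Tek 0.22, Pecam1 -0.14). The medians were 0.03 for 4 enteric neuron genes, 2 positive and 2 negative (Uchl1 0.26, Vip -0.15, Elavl4 0.09), and -0.25 for the single glial gene Sox10. For 7 epithelial genes, 2 positive and 5 negative, the median was -0.03 (Krt18 -0.26, Krt8 -0.08, Cdh1 -0.14). Among the rest, 2 genes of the mesothelial list had 0.06 (Upk3b 0.13, Krt19 0.00) and 3 adipocyte genes -0.03 (Adipoq -0.09, Fabp4 -0.03, Cidec 0.01). The cartilage list's Sox9 had 0.03, and 2 genes of the skeletal muscle list 0.31 (Acta1 0.33, Ckm 0.30). Krt19 read 12432.8 to 14631.6 in Mthfd1/+ and 11742.1 to 15134 in wild-type arrays, in the range of the epithelial markers. Msln, Wt1, Myh1 and Tnnt3 of these lists were below the filter, so neither median was shown to measure its cell type. Of 2 leukocyte genes, Ptprc read 888.4, 1173.4 and 1394.7 in Mthfd1/+ against 507.8, 550.2 and 831.2 in wild-type colon (log2 0.86, adjusted p = 0.603), and Cd68 had -0.13. Among the marker genes named, the groups did not overlap at Ptprc, Krt18 and Cdh5. Being named by smallest p, they cannot be set against the 10.4% of all tested probe sets that did not overlap. Overlap was not counted over all 43 tested marker genes.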

How the data were processed

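The deposited values are linear array intensities, 1 per probe set and array, without detection or background columns. The submitters' processing notes list GCOS, with no version or settings. Means of the deposited intensities after trimming 2% at each end were 499.4 to 499.9 on the 6 arrays, so the arrays carry a common scaling. The number of arrays limits the precision.

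After 64 control probe sets were left out, 20380 of 22626 probe sets had 1 symbol in the platform annotation, 691 several and 1555 none. The intensities were taken to log2(signal + 16), on which array medians differed by 0.09, and used as deposited. Probe sets under the 40th percentile of mean log2 signal were left out. Genotypes were compared over 13576 probe sets with limma 3.58.1 in R 4.3.3 (variance trend, two-sided), Benjamini-Hochberg adjustment and a threshold of 0.05; correlations were tested two-sided with scipy 1.17.1 over 720 permutations. The fit was tested on simulated data, drawn independently for each probe set and array. These data held no shift shared by genes on an array, so recovery under such shifts was not tested.

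A gene stood at its brightest probe set. Values by array are given for Mthfd1, the 5 brightest fibrillar, 4 basement membrane and 6 other collagen genes, and any tested collagen gene with an unadjusted p under 0.05 or groups that do not overlap. Up to 3 genes of each list by smallest p, and the 10 genes most like the fibrillar mean, are named as well, as are the members of the 8 chain pairs. Members and lists were chosen with earlier results of these data known. Each mouse is a biological replicate by its title. Alternatives changed the scaling, the pseudocount, the filter, the variance model, weighting of arrays, a block on replicate number, the choice of probe set, and left out each array in turn.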

Additional observations from a re-analysis of the deposited data

How the results depend on the processing

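The count of collagen probe sets that passed was 0 under every alternative run, and the replicate block left it at 0. Over all probe sets the count was 8 with robust variance, 4 with array weights and 0 to 39 with each array left out (39 without Mthfd1/+ replicate 1 and 2 without wild-type replicate 3); the cause was not tested. Whether the replicate numbers pair the samples was not settled. Deviations of same-numbered arrays correlated at -0.12, 0.49 and 0.04, and those of arrays with unlike numbers were not compared. With the replicate block, 921 probe sets had an unadjusted p under 0.05, against 772, and no collagen did. That count was 1395 with no filter, 443 at the 60th percentile and 444 without Mthfd1/+ replicate 3, where the filters also changed how many probe sets were tested. The median log2 fold change ran from -0.09 to 0.09 for all collagens and from -0.22 to 0.09 for the fibrillar genes as each array was left out, and was positive in the fibrillar class without wild-type replicate 3 and negative under the other alternatives run. For the other collagens it was -0.14, in place of 0.06, as the median of all probe sets of a gene, which changed both the summary and the filter; it was also negative with no filter (-0.03), without Mthfd1/+ replicate 3 (-0.01) and without wild-type replicate 2 (-0.06). The median r of fibrillar pairs ran from 0.47 to 0.91, that of basement membrane pairs from 0.03 to 0.41 (0.05 with quantile normalization) and that of other collagens from 0.44 to 0.58 with each array left out; with the other Col1a1 probe set, chosen after seeing the data, the fibrillar median was 0.78. In all, 125 of the 132 alternative values of the class and count results kept their side or lay within the error set for them. For the median r, that error came from the same values with each array left out. For the median fold changes, it was a spread between arrays, 0.209 in the fibrillar class, wide enough to hold a change of sign. The count is therefore not a measure of stability. Dim genes near the filter are the least certain, since no background is given.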
